A study of Homo sapiens with 12 samples.

Results

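The CCN and thrombospondin genes, with SPARC and TNC, were followed in DAOY cells, an established human medulloblastoma line. The 10 genes, chosen by name, were WISP1, WISP2, CTGF, CYR61 and NOV of the CCN family, the thrombospondins THBS1, THBS2 and THBS3, and SPARC and TNC, of 63677 gene identifiers in the tables. The 12 libraries covered 3 genotypes, which were parental cells (WT) and CRISPR/Cas9 lines lacking NOTCH1 (NOTCH1KO) or NOTCH2 (NOTCH2KO). Cells of each genotype grew on plates coated with the Notch ligand Jagged1 or with the Fc control fragment, and received DMSO or, for 12 h, DAPT, which blocks the γ-secretase cleavage that releases the active part of Notch receptors. Every combination of genotype, plate and drug had 1 library and each genotype was represented by 1 line, so that a genotype could not be told apart from the history of its line.

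Matricellular proteins are secreted into the extracellular matrix, where they modulate how cells attach, move and receive growth factors rather than building the scaffold itself. CCN proteins share a set of modules that bind insulin-like growth factor, BMP and TGF-β ligands, heparan sulphate and integrins, and CTGF and CYR61 are standard readouts of the transcription factors YAP and TEAD. Thrombospondins bind calcium, CD47, integrins and, in the case of THBS1 and THBS2, CD36, and THBS1 activates latent TGF-β and restrains blood vessel growth. SPARC binds collagen and tenascin-C, the product of TNC, is a large hexameric glycoprotein of developing and tumour stroma.

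The targeted genes were lower in the lines named for them. NOTCH1 lay between 0.278 and 0.874 TPM in the 4 NOTCH1KO libraries against 2.78 to 3.57 in WT, and NOTCH2 between 41.6 and 60.5 TPM in the 4 NOTCH2KO libraries against 74.9 to 94.9 in WT. TPM is a transcript level scaled for gene length and library size. Depth, in reads per library, lay between 18.3 and 22.4 M, at which 1 read in a 1-kb gene was worth between 0.0947 and 0.117 TPM. Among markers of the labelled tumour type and of neural cells, ATOH1 and NEUROD1 were under 1 TPM in every library, and the other 7 of 8 and 6 of 7 reached it in at least 1 library. Of 8 mesenchymal markers 7 had a mean of at least 1 TPM, DCN being the exception, and the summed level of the 8 lay between 7927 and 11279 TPM. The 4 endothelial markers and the epithelial EPCAM and CDH1 stayed under 1 TPM, and 2 of 3 blood markers, PTPRC and HBB, were at 0. The summed level of the 8 SHH-type medulloblastoma markers was 84.7 to 103 TPM in WT, 54.2 to 81.9 in NOTCH1KO and 141 to 188 in NOTCH2KO, and that of the 7 neural markers was 49.0 to 71.7, 36.6 to 56.0 and 80.1 to 99.3. The 5 epithelial markers summed to 778 to 1037 TPM in WT, 586 to 759 in NOTCH1KO and 685 to 809 in NOTCH2KO. Most of this was KRT18, at 606 to 893, 463 to 629 and 568 to 685 TPM in the same order. Of the 8 SHH-type markers, SFRP1 alone was at 34.8 to 55.3 TPM in WT, 28.8 to 53.9 in NOTCH1KO and 83.95 to 128 in NOTCH2KO. The higher sum of that list in NOTCH2KO thus came largely from 1 gene. Of the 7 neural markers, TUBB3 alone was at 32.8 to 61.0 TPM in WT, 25.3 to 44.1 in NOTCH1KO and 58.6 to 78.9 in NOTCH2KO. NES went the other way in NOTCH1KO, at 4.70 to 8.70 TPM against 0.462 to 1.25 in WT. STMN2 was at 9.13 to 10.2 TPM in NOTCH2KO and under 1 TPM in WT and NOTCH1KO. The summed levels moved with genotype, and the part of the lists in the genotype differences given here was not tested.

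Promoter sequences are shown for CTGF, THBS1 and THBS2, which differed between genotypes in the tests below. That of TNC, which passed none of these tests with all libraries in TPM, is shown too. The letters read by TEAD and by CSL, the DNA-binding partner of Notch, can be seen in them. SPARC and THBS3 also differed between genotypes, and their windows were searched but are not shown. Each sequence is the 250 bases before the transcription start in RefSeq on GRCh38.p14, written 5′ to 3′ on the strand of the gene. The promoter set used here held windows for 6 of the 10 genes. It held none for CYR61, NOV, WISP1 and WISP2, whose promoters were therefore not searched. Capitals mark GGAATG on either strand (TEAD) in the first 3 sequences and TGGGAA on either strand (CSL) in the last. The CTGF window is chr6:131951373-131951622 on the minus strand, that of THBS1 is chr15:39580829-39581078 on the plus strand, that of THBS2 is chr6:169253847-169254096 on the minus strand and that of TNC is chr9:115118158-115118407 on the minus strand.
CTGF: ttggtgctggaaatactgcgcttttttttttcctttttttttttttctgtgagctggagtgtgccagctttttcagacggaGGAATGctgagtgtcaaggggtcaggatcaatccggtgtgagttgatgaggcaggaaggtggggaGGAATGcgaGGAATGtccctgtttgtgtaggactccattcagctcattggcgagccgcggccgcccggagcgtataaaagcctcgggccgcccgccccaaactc
THBS1: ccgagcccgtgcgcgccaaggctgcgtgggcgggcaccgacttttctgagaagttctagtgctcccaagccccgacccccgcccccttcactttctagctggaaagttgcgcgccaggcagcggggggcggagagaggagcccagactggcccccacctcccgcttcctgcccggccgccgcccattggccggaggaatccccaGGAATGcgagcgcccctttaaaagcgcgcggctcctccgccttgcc
THBS2: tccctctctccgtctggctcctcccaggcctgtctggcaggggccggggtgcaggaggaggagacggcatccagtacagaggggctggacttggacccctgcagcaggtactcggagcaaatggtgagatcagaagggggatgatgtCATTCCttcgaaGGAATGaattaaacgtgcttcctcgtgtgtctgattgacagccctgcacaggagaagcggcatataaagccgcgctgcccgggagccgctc
TNC: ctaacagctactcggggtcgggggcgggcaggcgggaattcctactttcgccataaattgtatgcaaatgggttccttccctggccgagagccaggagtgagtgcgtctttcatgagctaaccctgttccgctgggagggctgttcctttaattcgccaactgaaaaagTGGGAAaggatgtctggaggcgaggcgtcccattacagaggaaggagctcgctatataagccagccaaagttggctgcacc

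GGAATG occurred 3 times before CTGF, with first bases 169, 104 and 95 bases before the start. THBS2 held it 2 times, at 103 and 91, as an inverted pair, THBS1 1 time at 46 and SPARC 1 time at 17, and neither THBS3 start nor TNC held it. In all, 11.9% of 35116 promoter windows of this length contained GGAATG on 1 strand or the other. TGGGAA lay 81 bases before TNC and 2 times, at 174 and 158, before 1 of the 2 starts of THBS3, and 20.8% of all windows contained it. It was not found before CTGF, THBS1, THBS2 or SPARC, which says only that these letters are not in this window. The AP-1 letters TGANTCA were in none of these windows (6.57% of all), and the SMAD letters CAGACA were before THBS2, 2 times, and TNC, 1 time (13.6% of all). No 2 matches shared bases, and a match is a description of the letters and not a bound site.

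Levels are compared among the genes on the TPM scale, which is per length. THBS1, CTGF, SPARC and CYR61 were the 4 highest, with means over 12 libraries of 1105 ± 340, 771 ± 365.5, 659 ± 199 and 537 ± 186 TPM (SD, n = 12). The ranges of these 4 genes overlapped. Within libraries THBS1 was always above CYR61, whereas the order of every other pair of them changed from library to library. TNC followed at 239 ± 56 TPM, and THBS2, WISP1, NOV and THBS3 had means of 29.5 ± 30.7, 20.6 ± 29.4, 12.3 ± 2.8 and 11.6 ± 5.9 TPM. WISP2, whose product lacks the C-terminal module of its relatives, was listed at 0 in 9 libraries and at 0.0703, 0.259 and 0.0942 TPM in the NOTCH2KO libraries on Fc with DMSO, on Jagged1 with DMSO and on Jagged1 with DAPT. These are levels of a few reads at most, and WISP2, with a mean below 1 TPM, entered no test. The other 9 genes were tested.

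In the NOTCH1KO line 6 of the 9 tested genes rose and 1 fell. For these counts and all that follow, log2(TPM + 1) was fitted with limma on additive terms for genotype and culture, and a gene was called at an adjusted p under 0.05 over all 17621 genes tested. Of all genes tested, 10.7% rose and 12.8% fell in NOTCH1KO. In the NOTCH2KO line 4 rose and 2 fell, beside 12% and 7.35% of all genes tested, and between the lines 2 were higher and 3 lower in NOTCH2KO, beside 19.8% and 11.9%. With 1 library left out, between 1116 and 1848 genes rose in NOTCH1KO, the lowest 3 counts being those without the Fc DMSO or Fc DAPT library of WT or the Fc DMSO library of NOTCH1KO. In NOTCH2KO between 1216 and 2481 rose and 809 to 1558 fell, both lowest on leaving out the Fc DMSO library of WT, and leaving out either Jagged1 library of WT or any NOTCH2KO library but that on Fc with DAPT also moved at least 1 of these counts by over 1.5 times. Centring each library on its median turned the split of all genes, to 2459 higher and 1926 lower against 1884 and 2253 in NOTCH1KO, to 1412 and 1877 against 2109 and 1296 in NOTCH2KO, and to 2403 and 3600 against 3489 and 2089 between the lines, and FPKM gave 1650 and 1536 in NOTCH2KO. Centring moved the median of all genes between the lines to -0.08. With it 6 of the 9 genes still rose and 0 fell in NOTCH1KO, and the counts of the 9 in the other 2 comparisons were the same. The median log2 difference of the 9 genes was 0.56, 0.01 and 0.03 in these 3 comparisons and that of all genes was 0.00, 0.06 and 0.07. Both knockout comparisons used the same WT libraries, so that they were not independent of each other. Groups without overlap were common. All NOTCH1KO libraries lay above all WT libraries for 2095 of the 17621 genes and below for 2198, beside 4 and 0 of the 9. In NOTCH2KO these counts were 2637 and 1723, beside 3 and 1, and between the lines 3456 and 2172, beside 1 and 3. In RNA from a whole culture, fewer cells that make a transcript and less transcript per cell cannot be told apart.

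**Figure D1:**
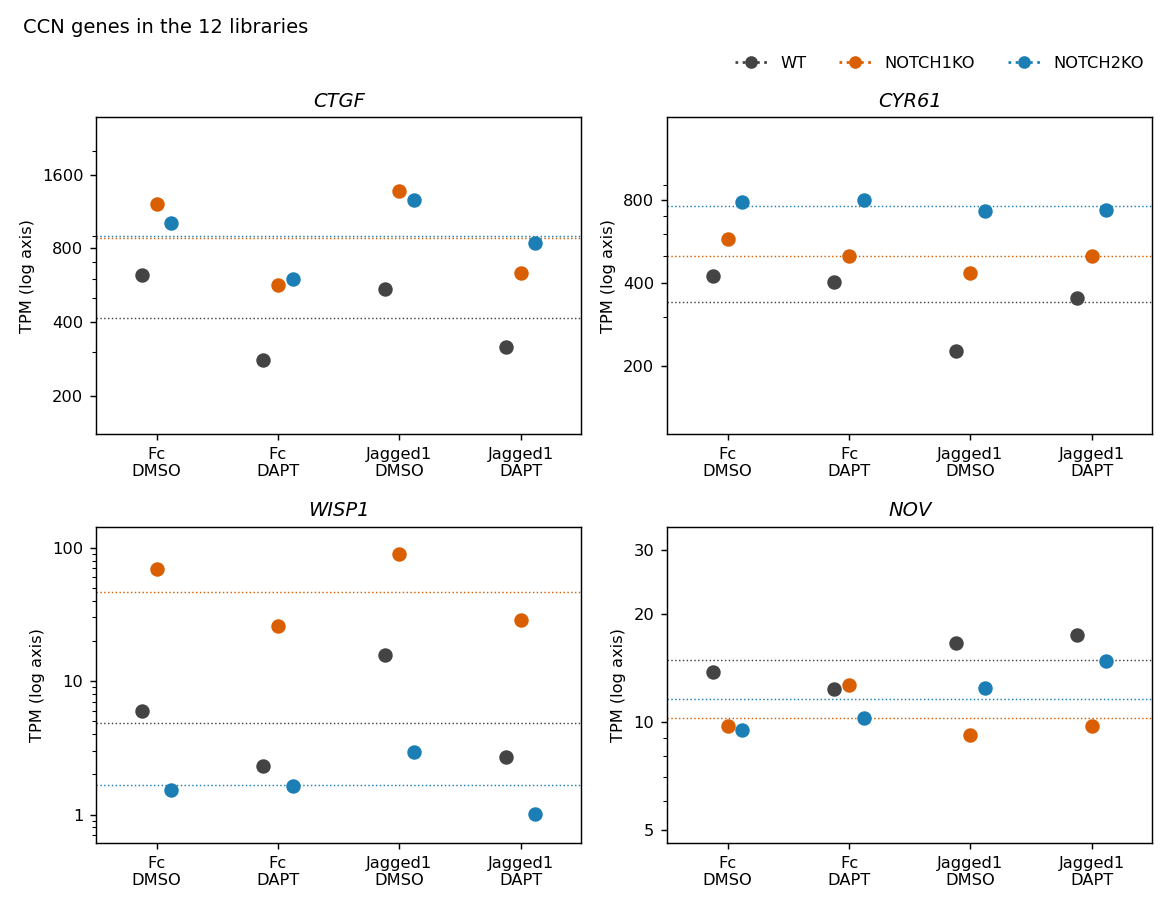
TPM of CTGF, CYR61, WISP1 and NOV in each of the 12 libraries (vertical axis, logarithmic) by plate and drug (horizontal axis), with 1 point per library coloured by genotype and dotted lines at the geometric mean of the 4 libraries of a genotype. CTGF points dropped with DAPT in all genotypes, WISP1 separated NOTCH1KO (25.7 to 89.2 TPM) from WT and NOTCH2KO, and CYR61 formed 3 separate bands.

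CTGF, a mediator of fibrosis downstream of TGF-β and YAP, was higher in both knockout lines. On Fc plates the WT libraries stood at 620.1 TPM with DMSO and 279 with DAPT, and on Jagged1 plates at 543 and 316. The NOTCH1KO libraries, in the same order, had 1210.3, 568, 1369 and 631 TPM, and the NOTCH2KO libraries had 1013, 599, 1261 and 841 TPM. Every knockout library was above the WT library of the same culture, whereas the ranges over all cultures overlapped because the DAPT libraries were low in each genotype. The difference from WT was 1.08 (SE 0.12, adjusted p = 0.000683) on the log2 scale in NOTCH1KO and 1.11 (SE 0.12, adjusted p = 0.000769) in NOTCH2KO. The lines themselves differed by 0.03 (adjusted p = 0.877), with a 95% interval from -0.24 to 0.30.

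CYR61, the other YAP-responsive CCN gene, which encodes an integrin ligand, also rose in both lines but to different levels. Its WT values, again with the Fc plates first and DMSO before DAPT, were 422, 402, 226 and 352 TPM. NOTCH1KO libraries had 574, 497, 434 and 500.3 TPM and NOTCH2KO libraries 786, 794, 726 and 735 TPM. None of the 3 groups overlapped another, with NOTCH2KO the highest. CYR61 differed from WT by 0.55 (SE 0.12, adjusted p = 0.0145) in NOTCH1KO and by 1.15 (SE 0.12, adjusted p = 0.000765) in NOTCH2KO, and the 0.61 between the lines was also called (adjusted p = 0.0068). The spread within NOTCH2KO was small, 760.3 ± 34.6 TPM (SD, n = 4), against 350.4 ± 88.1 in WT.

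WISP1, first described as a WNT-inducible gene, moved in opposite directions in the lines. It was among the genes that the study itself picked from these libraries, so that its NOTCH1KO level is not independent evidence. WT libraries had 5.98, 2.29, 15.6 and 2.68 TPM, in the order used above. In NOTCH1KO the values were 69.5, 25.7, 89.2 and 28.7 TPM and in NOTCH2KO 1.54, 1.64, 2.93 and 1.01 TPM. The lowest NOTCH1KO library exceeded the highest WT library, while NOTCH2KO and WT overlapped although each NOTCH2KO library was below its WT counterpart. In matched cultures the NOTCH1KO level was between 5.72-fold and 11.6-fold that of WT. The log2 difference was 2.95 (SE 0.27, adjusted p = 0.000294) in NOTCH1KO, -1.18 (SE 0.27, adjusted p = 0.0182) in NOTCH2KO and -4.13 (adjusted p = 4.15e-05) between the lines.

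The NOTCH2KO value of WISP1 depended on the scale, the model and single libraries. Its ratio of deposited coverage to FPKM, relative to that of CTGF in the same library, was 1.00 in all WT libraries, 0.738 to 0.937 in NOTCH1KO and 0.393 to 0.538 in NOTCH2KO, and with coverage in place of TPM the NOTCH2KO difference of WISP1 was -2.04 (adjusted p = 0.00219). The WISP1 call for NOTCH2KO was lost, at adjusted p between 0.0529 and 0.0639, on leaving out the Fc DMSO or the Jagged1 DMSO library of WT or of NOTCH2KO. It was also lost with genotype as the only term (adjusted p = 0.147). WISP1-OT1, which overlaps WISP1 on the same strand, was listed at 0.156 to 2.94 TPM over the libraries. Reads of the 2 can therefore be mixed, and what this contributed was not tested.

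NOV, a CCN protein that often opposes CTGF, was the 1 gene to fall in NOTCH1KO. WT libraries stood at 13.7, 12.3, 16.6 and 17.4 TPM. The NOTCH1KO values were 9.70, 12.6, 9.16 and 9.75 TPM and those of NOTCH2KO were 9.496, 10.2, 12.4 and 14.7 TPM. NOTCH1KO was below WT in 3 of 4 cultures and the ranges overlapped. The log2 difference was -0.50 (SE 0.15, adjusted p = 0.0465) in NOTCH1KO and -0.34 (adjusted p = 0.161) in NOTCH2KO. The NOTCH1KO call on NOV was lost on leaving out 10 of the 12 libraries in turn, with adjusted p up to 0.127, as well as without a filter on low values (0.08) and with median-centred libraries (0.0641).

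**Figure D2:**
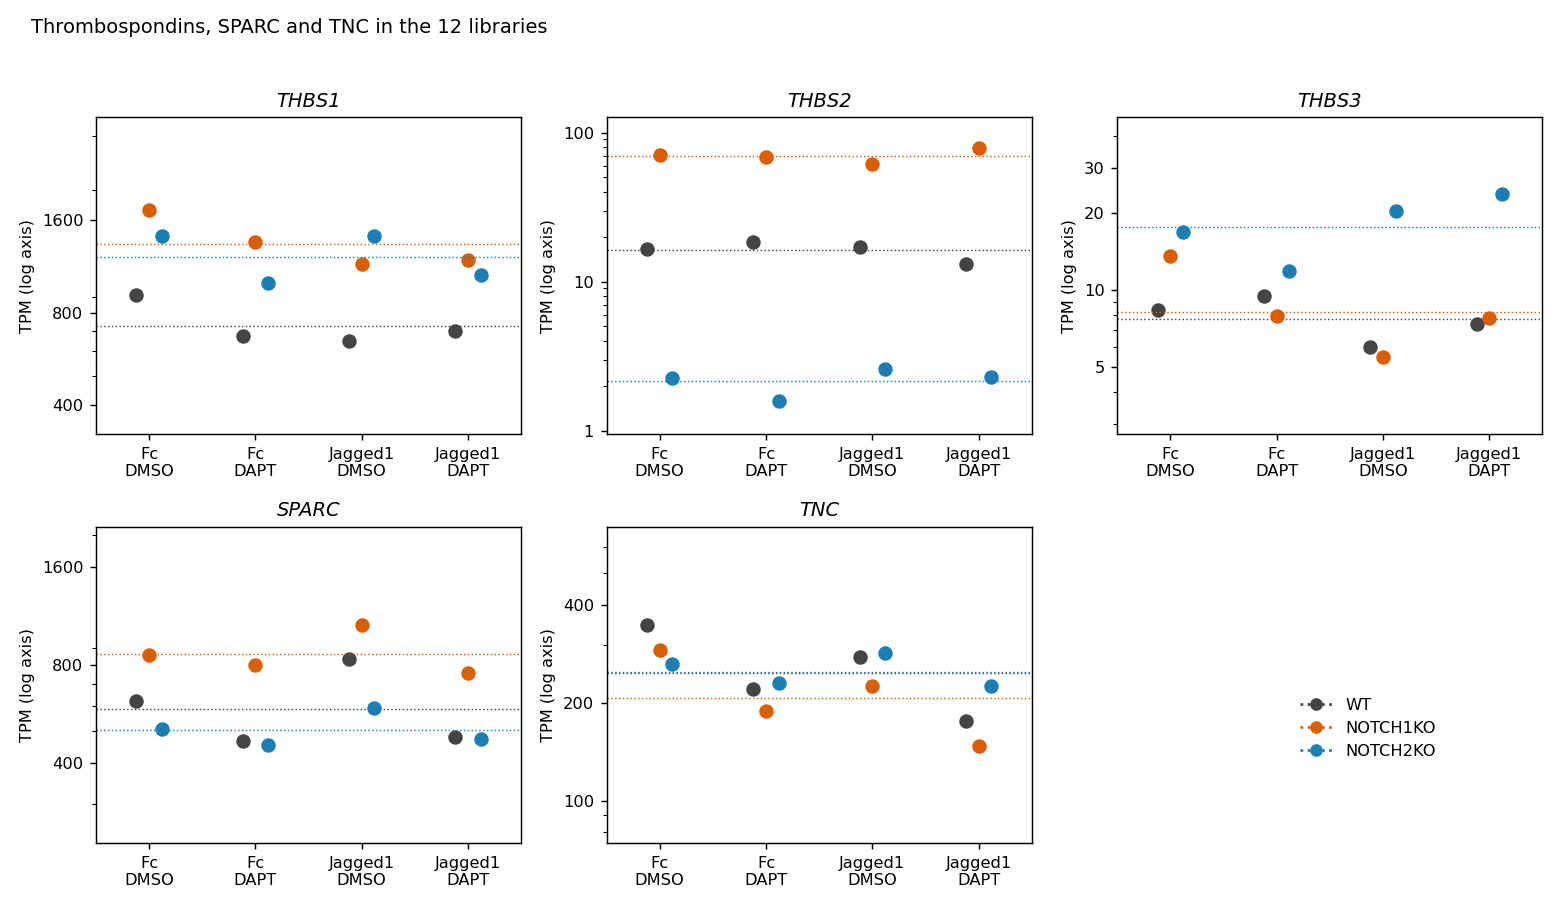
TPM of THBS1, THBS2, THBS3, SPARC and TNC in each of the 12 libraries (vertical axis, logarithmic) by plate and drug (horizontal axis), 1 point per library coloured by genotype, with dotted lines at the geometric mean of each genotype. THBS2 formed 3 bands whatever the culture, near 70, 16 and 2 TPM, whereas TNC differed little between genotypes and was lower in the DAPT libraries.

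THBS2, an anti-angiogenic thrombospondin that also limits collagen fibril growth, separated the 3 genotypes. In WT it was at 16.6, 18.5, 17.0 and 13.1 TPM. NOTCH1KO libraries carried 70.6, 68.5, 61.5 and 79.0 TPM and NOTCH2KO libraries 2.26, 1.58, 2.604 and 2.28 TPM. No group overlapped another and plate or drug left little mark within a genotype. The fitted difference from WT was 2.04 (SE 0.15, adjusted p = 0.000107) in NOTCH1KO and -2.45 (SE 0.15, adjusted p = 5.09e-05) in NOTCH2KO. Between the lines it was -4.48 (adjusted p = 7.26e-07), and in matched cultures NOTCH1KO held between 23.6-fold and 43.3-fold the NOTCH2KO level. On the log2(TPM + 1) scale these differences understate the fold change of a gene at such low levels.

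THBS1, the TGF-β-activating thrombospondin, followed CTGF rather than THBS2 in its genotype pattern. WT libraries had 911, 674, 646 and 699 TPM, NOTCH1KO libraries 1728, 1358, 1149.7 and 1184, and NOTCH2KO libraries 1421, 1001, 1427 and 1065. All 8 knockout libraries exceeded all WT libraries, and the knockout ranges overlapped each other. The log2 difference was 0.88 (SE 0.11, adjusted p = 0.00148) in NOTCH1KO and 0.74 (SE 0.11, adjusted p = 0.00381) in NOTCH2KO. Between the lines it was -0.14 (adjusted p = 0.385, 95% interval -0.40 to 0.12), and without the NOTCH2KO library on Jagged1 with DMSO the difference of THBS1 was called (-0.28, adjusted p = 0.0249).

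THBS3, a pentameric thrombospondin of cartilage and bone, was high in the NOTCH2KO line. WT libraries had 8.36, 9.49, 6.01 and 7.40 TPM and NOTCH1KO libraries 13.7, 7.90, 5.48 and 7.80. The NOTCH2KO line reached 16.9, 11.8, 20.3 and 23.7 TPM. NOTCH2KO lay above WT throughout, and the NOTCH1KO library on Fc with DMSO reached into its range. The difference of NOTCH2KO was 1.10 (SE 0.26, adjusted p = 0.0198) from WT and 1.01 (SE 0.26, adjusted p = 0.0181) from NOTCH1KO, while that of NOTCH1KO from WT was 0.09 (adjusted p = 0.832).

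Leaving out any of 5 libraries ended the THBS3 call of NOTCH2KO against WT, at adjusted p between 0.0635 and 0.0682, and they were the Fc DMSO, Jagged1 DMSO and Jagged1 DAPT libraries of WT and the Jagged1 libraries of NOTCH2KO. The Jagged1 libraries of NOTCH1KO and NOTCH2KO did so for the difference between the lines, at 0.0538 to 0.0626. The gene overlaps MTX1 on the opposite strand, which was at 32.2 to 53.6 TPM, and no source used here gave the strand setting of the counting. For THBS3 reads of the gene and of MTX1 can therefore be mixed.

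SPARC, a collagen-binding protein made by many mesenchymal cells, rose in NOTCH1KO. WT libraries held 620.0, 467, 835 and 481 TPM. Those of NOTCH1KO held 857, 802, 1060.1 and 757 TPM, and those of NOTCH2KO 508, 453, 591 and 475 TPM. Each NOTCH1KO library was above its WT counterpart and each NOTCH2KO library below, though WT overlapped both. The log2 difference was 0.56 (SE 0.09, adjusted p = 0.00335) in NOTCH1KO, -0.21 (adjusted p = 0.132) in NOTCH2KO and -0.77 (adjusted p = 0.000501) between the lines, whose libraries did not overlap.

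TNC had no called difference between genotypes in TPM. WT libraries had 347, 221, 277 and 176 TPM, NOTCH1KO libraries 289.9, 189, 225 and 148, and NOTCH2KO libraries 262, 229, 284 and 225. All 3 ranges overlapped, and NOTCH1KO was below WT in 4 of 4 cultures. The log2 difference was -0.26 (adjusted p = 0.151, 95% interval -0.53 to 0.01) in NOTCH1KO and 0.01 (adjusted p = 0.959, 95% interval -0.26 to 0.28) in NOTCH2KO. With coverage in place of TPM the NOTCH1KO difference of TNC was -0.43 and was called (adjusted p = 0.0217), and without the NOTCH2KO library on Fc with DMSO so was the difference between the lines (0.41, adjusted p = 0.0161, against 0.27 with all libraries).

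**Figure D3:**
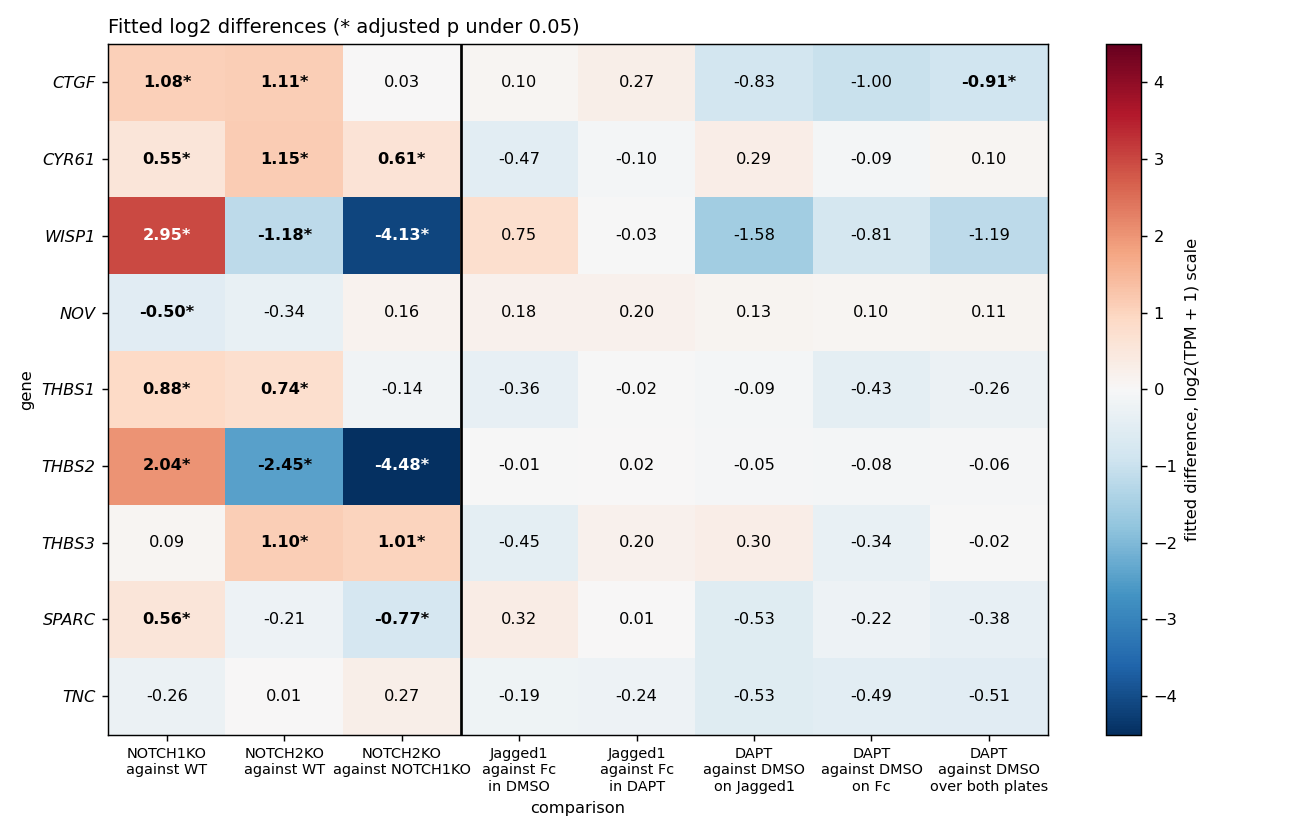
Fitted log2 differences of the 9 tested genes (rows) in the 3 genotype comparisons, 4 culture comparisons and the DAPT comparison over both plates (columns), with red for higher and blue for lower and an asterisk at an adjusted p under 0.05. CTGF and THBS1 were called in both knockout lines, WISP1 and THBS2 had opposite signs in the lines, and the 1 asterisk among the culture columns belonged to CTGF.

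DAPT lowered CTGF in every matched pair of libraries. On Fc plates WT went from 620.1 TPM with DMSO to 279 with DAPT, NOTCH1KO from 1210.3 to 568 and NOTCH2KO from 1013 to 599. On Jagged1 plates WT went from 543 to 316, NOTCH1KO from 1369 to 631 and NOTCH2KO from 1261 to 841. The DMSO level was thus between 1.5-fold and 2.23-fold the DAPT level of the same genotype and plate, and on Fc the 3 DMSO libraries were all above the 3 DAPT libraries, whereas on Jagged1 the groups overlapped. The fitted DAPT difference of CTGF was -0.83 (SE 0.14, adjusted p = 0.085) on Jagged1 and -0.999 (SE 0.14, adjusted p = 0.108) on Fc, so that neither passed the test on its own plate.

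None of the 9 genes was called in any of the 4 comparisons between cultures by limma, with all libraries or with any 1 of the 12 left out. On Jagged1, DAPT against DMSO called 0.0284% of all genes tested and on Fc 0.0341%, and Jagged1 against Fc called 0.0114% in DMSO and 0.00568% in DAPT. Without the NOTCH2KO library on Jagged1 with DMSO, DAPT on Jagged1 called 31 genes higher and 87 lower, against 0 and 5 with all libraries, and Jagged1 against Fc in DMSO called 27 and 15, against 2 and 0. At an unadjusted p under 0.05 there were 4 of the 9 genes for DAPT on Jagged1 (CTGF, SPARC, WISP1 and TNC), 4 for DAPT on Fc (CTGF, TNC, THBS1 and WISP1), 4 for Jagged1 in DMSO (CYR61, SPARC, THBS1 and WISP1) and 0 for Jagged1 in DAPT. All genes with such a p numbered 1939, 1082, 1901 and 836. DAPT on Jagged1 and Jagged1 against Fc in DMSO used the same Jagged1 DMSO libraries, and so a high value there moved both comparisons.

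A fit over both plates, with terms for genotype, plate and drug, was added after these values were seen. There the 6 pairs gave 1 DAPT difference with 7 residual degrees of freedom, and 0.25% of all genes tested were called, 10 higher and 34 lower. CTGF was the only one of the 9 genes called, with a difference of -0.91 (SE 0.10, adjusted p = 0.00766), and it was called with each of the 12 libraries left out in turn (adjusted p up to 0.0411) and with each of the 6 other scales and filters tried (up to 0.0253). HES1, a direct Notch target, fell by 0.96 in the same fit (adjusted p = 0.00609). It was the 1 gene called of 6 tested Notch targets, whose median was -0.81. Whether the fall of CTGF runs through Notch was not tested.

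**Figure D4:**
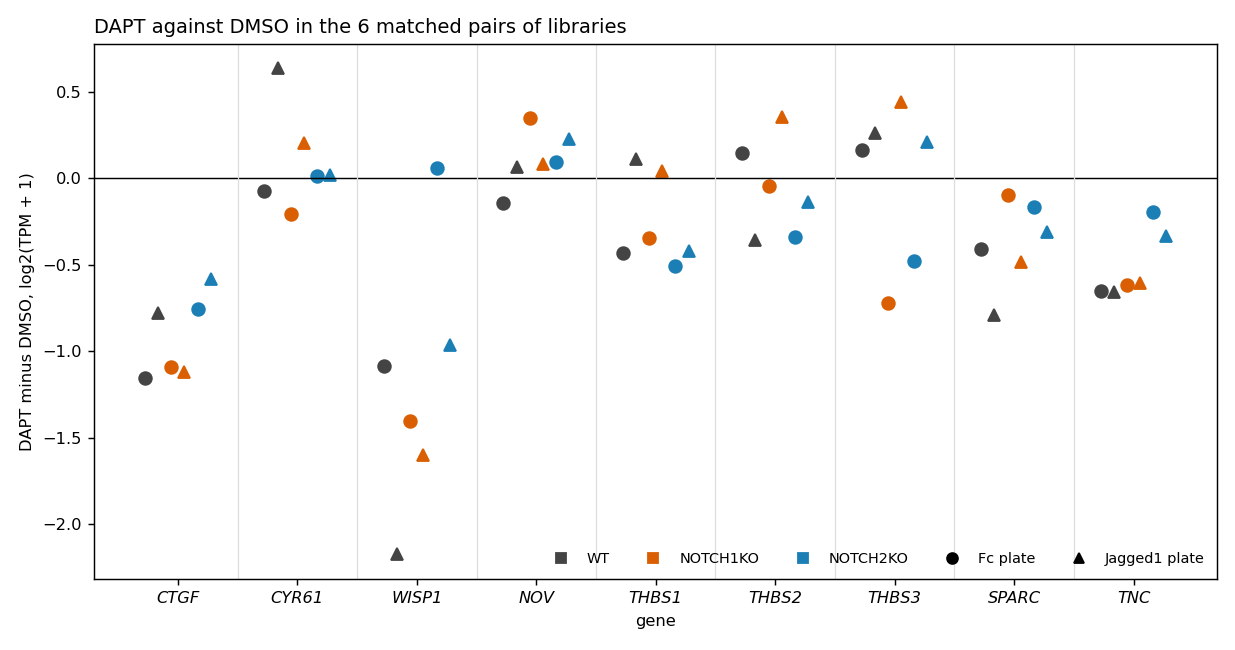
Difference between the DAPT and the DMSO library of the same genotype and plate in log2(TPM + 1) (vertical axis) for the 9 tested genes (horizontal axis), with colours for genotypes, circles for Fc and triangles for Jagged1 plates. All 6 points lay below 0 for CTGF, SPARC and TNC, and 5 of 6 for WISP1.

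TNC, SPARC and WISP1 were lower in most pairs under DAPT without passing the test over both plates. TNC was lower in 6 of 6 pairs, with 347 against 221 and 277 against 176 TPM in WT, 289.9 against 189 and 225 against 148 in NOTCH1KO, and 262 against 229 and 284 against 225 in NOTCH2KO, naming the Fc pair first. The DMSO level was thus 1.52-fold to 1.58-fold the DAPT level in the 4 WT and NOTCH1KO pairs and 1.14-fold and 1.26-fold in the NOTCH2KO pairs. Its difference over both plates was -0.51 (SE 0.09, adjusted p = 0.0637), and TNC was called there (-0.59, adjusted p = 0.0265) when the NOTCH2KO library on Fc with DMSO was left out.

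SPARC was lower under DAPT in 6 of 6 pairs, and its widest pair was WT on Jagged1, with 835 TPM in DMSO and 481 in DAPT. The narrowest was NOTCH1KO on Fc, with 857 and 802 TPM, and the difference over both plates was -0.38 (SE 0.08, adjusted p = 0.116). WISP1 was lower in 5 of 6 pairs and differed by -1.19 (SE 0.24, adjusted p = 0.0923). The WISP1 exception was NOTCH2KO on Fc, with 1.54 TPM in DMSO and 1.64 in DAPT, and without that DAPT library WISP1 was called (-1.41, adjusted p = 0.0352). In WT on Jagged1 WISP1 was at 15.6 TPM in DMSO and 2.68 in DAPT, the widest pair of any of the 9 genes.

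CYR61 had no such pattern, with the DAPT library higher in 4 of 6 pairs and a difference over both plates of 0.10 (adjusted p = 0.831, 95% interval -0.15 to 0.35). The direction for CYR61 turned with the plate in WT, which had 422 and 402 TPM in DMSO and DAPT on Fc and 226 and 352 on Jagged1. The WT library on Jagged1 with DMSO was the lowest for CYR61 of all 12. THBS1 was lower under DAPT in all 3 pairs on Fc and in 1 of 3 on Jagged1 (over both plates -0.26, adjusted p = 0.438). NOV, THBS2 and THBS3 had differences over both plates of 0.11, -0.06 and -0.02.

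Jagged1 against Fc in DMSO gave differences in either direction, none of them called. The 6 tested Notch target genes had a median of 0.95 in this comparison, and 0 of them were called. The lack of calls therefore does not show that Jagged1 left the 9 genes unchanged. WISP1 was higher on Jagged1 in 3 of 3 genotypes (log2 difference 0.75, SE 0.31, adjusted p = 0.451), and so was SPARC (0.32, SE 0.10, adjusted p = 0.368). CYR61 was lower in 3 of 3 (-0.47, SE 0.14, adjusted p = 0.347), from 422 to 226 TPM in WT, from 574 to 434 in NOTCH1KO and from 786 to 726 in NOTCH2KO. With DAPT on both plates no gene of the 9 differed by more than 0.27, the value of CTGF, and CTGF was higher on Jagged1 in 3 of 3 genotypes there (adjusted p = 1.00).

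Whether the knockouts changed these responses was tested as a difference of responses, with 4 residual degrees of freedom. None of the 9 genes was called in any of the 6 such tests by limma, of which 5 called 0% and 1, DAPT on Fc in NOTCH2KO against WT, called 0.00568% of all genes tested. CYR61 was the 1 gene with an unadjusted p under 0.05, for Jagged1 in DMSO in NOTCH2KO against WT, where the response differed by 0.78 (SE 0.25, adjusted p = 1.00). For CTGF on Jagged1 the DAPT response differed from that of WT by -0.34 (SE 0.32) in NOTCH1KO and 0.20 (SE 0.32) in NOTCH2KO. For the DAPT response on Jagged1 in NOTCH1KO against WT the SE ran from 0.21 for SPARC to 0.82 for THBS3. The 95% interval of this response difference was -0.21 to 0.82 for SPARC and -1.79 to 2.16 for THBS3. With so few residual degrees of freedom these tests called almost no gene at all. The lack of calls among the 9 therefore does not show that the knockouts left the responses unchanged.

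The genes lie on 7 chromosomes, and the neighbourhood of several moved with genotype too. Positions are those of the deposited tables, on GRCh37. CTGF (chromosome 6, 132269316 to 132272513) and THBS2 (chromosome 6, 169615875 to 169654139) share the long arm of chromosome 6. Within 5 Mb of THBS2 the 21 other tested genes had a median difference of 0.31 in NOTCH1KO, with 8 called higher and 1 lower, and of -0.28 in NOTCH2KO, with 2 higher and 8 lower. THBS2 itself lay outside the range of these neighbours in both lines, which ran from -0.59 to 1.38 and from -2.11 to 0.71. Around CTGF the 39 neighbours had medians of 0.10 and -0.20, the latter opposite in sign to the 1.11 of CTGF. What the neighbourhood contributed was not tested.

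**Figure D5:**
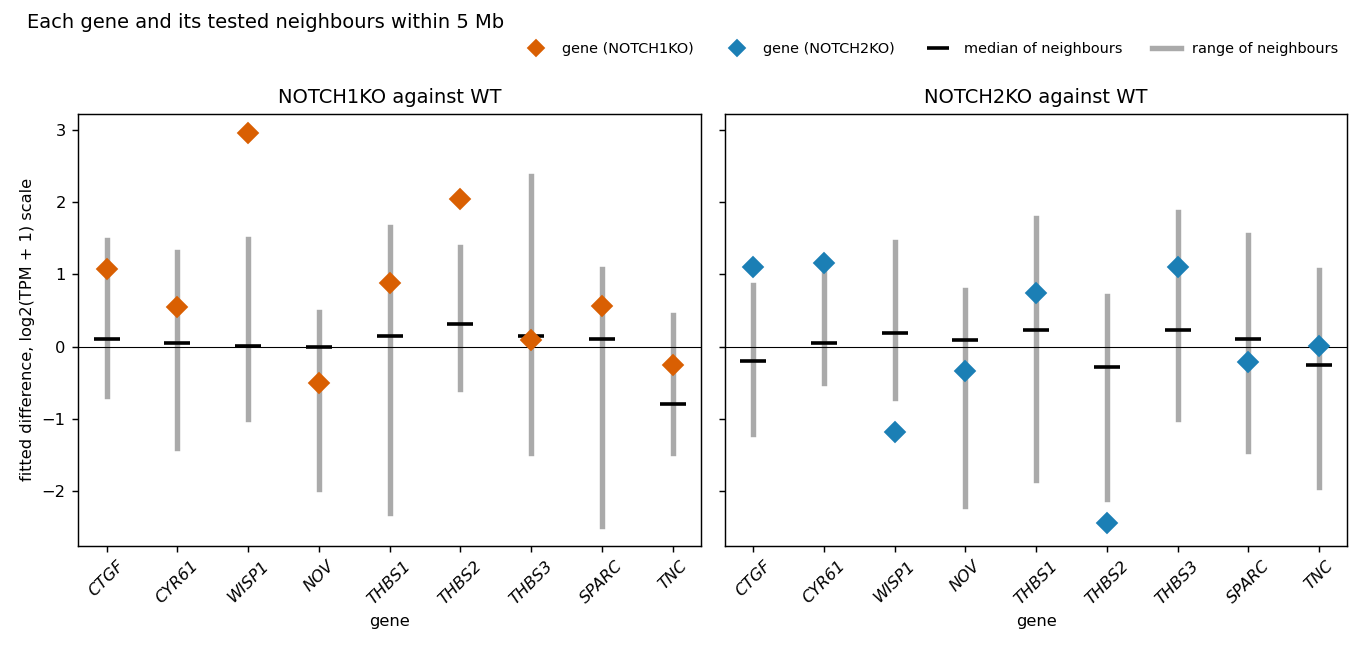
Fitted log2 difference from WT (vertical axis) of each tested gene (diamonds) with the median (black bars) and range (grey lines) of the other tested genes within 5 Mb, for NOTCH1KO on the left and NOTCH2KO on the right. WISP1 and THBS2 lay outside the range of their neighbours in both lines, and the neighbours of TNC were mostly lower in NOTCH1KO, with a median of -0.79.

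TNC (chromosome 9, 117782806 to 117880536) stood in a stretch of lower genes in NOTCH1KO, where 32 of 46 neighbours were called lower and 0 higher, at a median of -0.79 against -0.26 for TNC itself. In NOTCH2KO these neighbours had a median of -0.26 and TNC 0.01. For WISP1 (chromosome 8, 134203282 to 134242587) the 15 neighbours had medians of 0.01 and 0.19, and WISP1 lay beyond their highest value of 1.49 in NOTCH1KO and below their lowest of -0.71 in NOTCH2KO. Around THBS1 (chromosome 15, 39873280 to 39891667) the 114 neighbours had medians of 0.14 and 0.23, and around CYR61 (chromosome 1, 86046444 to 86049645) the 51 neighbours had medians of 0.05 and 0.06. In NOTCH2KO CTGF and CYR61, at 1.11 and 1.15, lay above their highest neighbours, at 0.85 and 1.13. In NOTCH1KO both lay within the range of their neighbours. NOV, THBS1, THBS3, SPARC and TNC lay within that range in both lines.

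Some of the genes ran in parallel over the 12 libraries, which shared genotype, plate and drug, so that these correlations are a description. WISP1 and SPARC had a Pearson r of 0.96 in log2(TPM + 1), WISP1 and THBS2 0.88, CYR61 and THBS3 0.80, and CTGF and THBS1 0.79. The lowest values were -0.68 for THBS2 with THBS3 and -0.67 for NOV with THBS1. Among all genes with a mean of at least 5 TPM, the closest to WISP1 was TMEM119 (r = 0.96), at 5.86, 31.0 and 3.95 TPM on average in WT, NOTCH1KO and NOTCH2KO. The closest to SPARC was WISP1, to THBS2 the ribosomal protein gene RPS12 (0.99), to CYR61 ZNF185 (0.97), to THBS1 IFFO2 (0.95), to CTGF MAGEH1 (0.94), to NOV RNF141 (0.94), to THBS3 C22orf29 (0.93) and to TNC the salt-inducible kinase SIK1 (0.89). VCAN, the matrix proteoglycan versican, was close to CTGF too (0.91).

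Other matricellular genes, 11 of 20 of which were tested, moved in both directions, and for these and the lists that follow the shares of all genes tested are those given above, 10.7% higher and 12.8% lower in NOTCH1KO and 12% and 7.35% in NOTCH2KO. In NOTCH1KO 2 rose and 2 fell (median -0.06) and in NOTCH2KO 3 rose and 1 fell (median 0.12). The elastic-fibre gene FBLN5 fell by 0.75 in NOTCH1KO (adjusted p = 0.00124), from 5.90 ± 0.56 to 3.11 ± 0.17 TPM (SD, n = 4). EDIL3, an integrin ligand, rose there by 0.65 (adjusted p = 0.00738), from 154 ± 35 to 238 ± 14 TPM. In NOTCH2KO FBLN1 rose by 0.995 (adjusted p = 0.00264), from 39.2 ± 7.4 to 78.5 ± 10.8 TPM, and osteopontin (SPP1) fell by 0.76 (adjusted p = 0.00311), from 14.6 ± 3.0 to 8.15 ± 1.34 TPM.

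Receptors for these proteins differed between the lines. Of 15 tested receptor genes, 5 rose and 3 fell in NOTCH1KO and 6 rose and 1 fell in NOTCH2KO, with medians of -0.10 and 0.42. CD47, the thrombospondin receptor that also signals against phagocytosis, was at 123 ± 28 TPM in WT, 69.0 ± 17.6 in NOTCH1KO and 179 ± 24 in NOTCH2KO. Its fall by 0.83 in NOTCH1KO (adjusted p = 0.0119) and the 1.39 between the lines (adjusted p = 0.000825) were called. LRP1, an endocytic receptor that clears thrombospondins and CTGF, had 8.85 ± 0.68, 4.17 ± 0.69 and 12.7 ± 1.8 TPM and fell by 0.94 in NOTCH1KO (adjusted p = 0.00166). CALR, which encodes the chaperone calreticulin, a partner of THBS1 at the cell surface, rose by 0.97 in NOTCH1KO (adjusted p = 0.00258) and by 0.83 in NOTCH2KO (adjusted p = 0.00601).

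Other targets of YAP and TEAD, none of which is one of the 10 genes, had more rises than falls against WT. All 22 were tested, and 5 rose and 0 fell in NOTCH1KO (median 0.16) while 9 rose and 0 fell in NOTCH2KO (median 0.48). In NOTCH1KO 5 rose and 2 fell with FPKM, 9 and 0 with median-centred libraries and 6 and 1 with coverage, and in NOTCH2KO between 7 and 14 rose and 0 fell on these scales. DLC1 rose by 1.57 in NOTCH1KO (adjusted p = 0.00488) and by 1.22 in NOTCH2KO (adjusted p = 0.0157), from 5.48 ± 2.24 TPM to 17.3 ± 3.4 and 13.3 ± 2.4. ANKRD1, another common readout of YAP, rose by 1.19 in NOTCH1KO (adjusted p = 0.00147), from 61.8 ± 9.4 to 143 ± 27 TPM. YAP1 itself fell by 0.57 in NOTCH1KO (adjusted p = 0.0156) and by 0.44 in NOTCH2KO (adjusted p = 0.0485), and of the 15 Hippo pathway genes 3 rose and 3 fell in NOTCH1KO and 1 rose and 2 fell in NOTCH2KO. Over both plates DAPT changed 1 of the 22, with IGFBP3 down by 0.78 (adjusted p = 0.0404), and the median of the 22 was -0.10.

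TGF-β pathway genes had 2 rises and 3 falls among 15 in NOTCH1KO and 6 rises and 0 falls in NOTCH2KO, with medians of 0.05 and -0.07, which became -0.05 and 0.04 with coverage. The ligand gene TGFB2 rose in both, by 1.76 (adjusted p = 0.000173) and 1.07 (adjusted p = 0.0021), from 8.62 ± 1.53 TPM to 32.0 ± 7.7 and 19.2 ± 4.1. Under DAPT over both plates SKIL, a negative regulator of SMADs, fell by 0.78 (adjusted p = 0.0106). Of 12 tested WNT pathway and target genes 1 rose and 2 fell in NOTCH1KO and 2 rose and 0 fell in NOTCH2KO. AXIN2, a general WNT target, was at 1.85 ± 0.47 TPM in WT, 1.27 ± 0.35 in NOTCH1KO and 3.37 ± 0.60 in NOTCH2KO, higher in NOTCH2KO (0.62, adjusted p = 0.0388). Whether WNT signalling bears on WISP1 was not tested. WNT5A fell by 1.02 under DAPT over both plates (adjusted p = 0.0207). Of 6 tested Notch target genes 0 rose and 2 fell in NOTCH1KO and 0 rose and 1 fell in NOTCH2KO, with medians of -0.34 and -0.23. HES1 was the only gene of the 7 lists called in a comparison on 1 plate, for DAPT on Jagged1 (-1.11, adjusted p = 0.0478).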

How the data were processed

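Poly-A RNA of DAOY cells was made into stranded TruSeq mRNA libraries and read as single 51-base reads on a HiSeq2500, and bcl2fastq 2.17 and GRCh37 were named in the submitters' processing notes. Aligner, counter, annotation release and strand setting: not given in the sources used here. Per gene, the authors deposited TPM values, which are scaled by length and sum to the same total in each library. FPKM values deposited by the authors were a fixed multiple of TPM within a library, and the deposited coverage was the mean read depth per base. Rows of 1 gene identifier were summed, and depth came from the ratio of coverage to FPKM. No pair of libraries correlated above 0.976 (66 pairs).

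Differences were fitted with limma 3.58.1 in R 4.3.3 on log2(TPM + 1) with a trended prior variance, keeping 17621 genes whose mean TPM was 1 or more, with additive terms for genotype and culture (6 residual degrees of freedom). With 1 library per combination the residual holds only how far libraries stray from the additive terms, and p-values do not measure variation between separately grown cultures. P-values were adjusted by the Benjamini-Hochberg method across all genes tested. Alternatives changed the pseudocount to 0.1, the filter to none or a mean TPM of 5, the unit to FPKM or to coverage scaled to a common sum, the scaling, the model terms or the libraries. The 10 genes were all named, along with up to 3 called members of each context list per comparison and the 3 genes closest in pattern to each gene, without clone names, antisense RNAs and pseudogenes, of which the text gives the first and VCAN, picked once values were known. The genes and lists were chosen with earlier results of these data known.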

Additional observations from a re-analysis of the deposited data

How the results depend on the processing

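The rises of WISP1, THBS2, CTGF, THBS1, SPARC and CYR61 in NOTCH1KO, and of CYR61, CTGF and THBS1 with the fall of THBS2 in NOTCH2KO, were called under every alternative run for them, and the calls lost for NOV, WISP1 and THBS3 are given with their values above. Of 342 alternative fits of called genotype differences 316 stayed called and 26 did not, and 0 changed direction. The number of the 9 genes called under DAPT over both plates was 1 to 2 with libraries left out. Without a filter on low values that comparison called 1 gene higher and 11 lower among all genes, and with libraries left out in turn 1 to 8 higher and 10 to 35 lower, fewer by over 1.5 times except without the Fc DAPT library of NOTCH1KO or of NOTCH2KO.

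Differences that were not called changed sign as follows, and the cause was not tested. With coverage in place of TPM they became -0.13 for TNC in NOTCH2KO against WT, 0.041 for THBS3 and 0.12 for THBS2 on Jagged1 in DMSO, -0.059 for THBS3 under DAPT on Jagged1, and 0.028 for THBS1 on Jagged1 in DAPT. Median centring gave -0.086 for TNC in NOTCH2KO, -0.12 for CTGF between the lines, and -0.026 for SPARC and -0.012 for THBS2 on Jagged1 in DAPT. FPKM gave -0.039 for TNC in NOTCH2KO, 0.0035 for THBS2 under DAPT on Jagged1 and 0.0078 for WISP1 on Jagged1 in DAPT, and a pseudocount of 0.1 gave 0.0092 for THBS2 on Jagged1 in DMSO. With 1 library left out, ranges were -0.12 to 0.28 for THBS3 in NOTCH1KO, -0.10 to 0.15 for TNC in NOTCH2KO and -0.085 to 0.14 for CTGF between the lines. On Jagged1 in DMSO they were -0.052 to 0.22 for CTGF and -0.12 to 0.13 for THBS2, and under DAPT on Jagged1 -0.20 to 0.10 for THBS1 and -0.18 to 0.13 for THBS2. Under DAPT on Fc they were -0.12 to 0.24 for NOV and -0.23 to 0.087 for THBS2. On Jagged1 in DAPT they were -0.23 to 0.34 for WISP1, -0.076 to 0.074 for SPARC, -0.12 to 0.076 for THBS1, -0.082 to 0.45 for THBS3 and -0.14 to 0.20 for THBS2. Over both plates DAPT gave -0.014 to 0.16 for CYR61, -0.16 to 0.15 for THBS3 and -0.12 to 0.013 for THBS2.

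WISP2 was listed at 0 or at the level of a few reads at most, up to 0.259 TPM.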
